A study of Glycine max with 24 samples.

Results

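FLS2 is the receptor through which plants sense flg22, a peptide of bacterial flagellin, and soybean (Glycine max) carries it in more than one copy. Its soybean homologues Glyma08g08810 on chromosome 8 and Glyma05g25830 on chromosome 5 were chosen by locus identifier and not by their values. Each locus had 1 transcript in the deposited table, Glyma08g08810.1 and Glyma05g25830.1, so the pair is 2 of 41743 transcripts. Both passed the filter on low counts, as did 33214 transcripts in all. The table gives identifiers only, and the name FLS2 is background knowledge about these loci.

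FLS2 is a receptor kinase of the plasma membrane. Its outer part, a row of leucine-rich repeats, binds flg22, and the receptor then pairs with the co-receptor BAK1, as worked out in Arabidopsis. The receptor complex starts a burst of reactive oxygen, a calcium influx and a mitogen-activated protein kinase cascade, which change the transcription of defence genes. Soybean is an ancient polyploid, and many of its genes lie in duplicated chromosome segments, so that receptor copies can differ in level and in response.

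Leaf RNA was sequenced from 4 lines after MAMP treatment or mock treatment (control), with 3 libraries in each of the 8 groups. MAMP stands for microbe-associated molecular pattern, and slices of treated leaves lay for 30 min in 5 ml of a mix of flg22 (1 µM) with chitin of crab shells (50 µg). Chitin, of fungal cell walls, is sensed by other receptors, so the responses to flg22 and to chitin cannot be told apart. The control slices lay in water with DMSO, and all slices had been infiltrated with water and floated on it overnight beforehand, in the dark. The inbred lines R-11268 and R-11272 derive from a cross of the parental lines LD and LDX, each being 1 line of that recombinant population. Each library came from a pool of detached trifoliolate leaves of 5 plants aged 3 weeks (16 h photoperiod), and libraries of a line with the same number were read as 1 pool, which gives 12 pools. Columns marked P in the table were taken as MAMP libraries, since C stands for control and the labels have no other treatment.

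Library totals ran from 9780810 to 20827163 estimated counts. In each line the MAMP-to-control ratio of a transcript was the same in the 3 pools once library scaling was removed (SD under 0.001 on the log2 scale for 100% of transcripts), so the table has the form of fitted values and holds no pool-to-pool error of a response. The tests below set a response against the spread of levels between pools, which is not the error of the response itself. Both libraries of LD pool 2, LDX pool 3 and R-11272 pool 1 stood apart on the first principal component (41.2% of the variance). The identifiers could not be matched to an annotation, so leaf markers and other genes of the flg22 pathway were not analysed here. No source used here tells how reads that match both FLS2 copies were counted, so the split between the copies is uncertain.

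The copy on chromosome 8 rose after MAMP treatment in each of the 4 lines, by a mean factor of 2.47. In whole leaf slices, more RNA per cell and more cells of an expressing type cannot be told apart. In LD, Glyma08g08810.1 had 202, 288 and 193 CPM (estimated counts scaled to a common library size, with TMM factors) in MAMP libraries of pools 1, 2 and 3, against 62.2, 90.8 and 60.1 CPM in control libraries. In LDX it had 67.4, 81.5 and 121 CPM in MAMP libraries, against 30.7, 36.8 and 53.9 CPM in control libraries. The lowest treated library thus lay above the highest control library in both parents.

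The same held in both inbred lines. In R-11268 the chromosome 8 copy had 103, 152 and 98 CPM in MAMP libraries, against 49.5, 73 and 47.3 CPM in control libraries. In R-11272 it had 73.3, 70.9 and 55 CPM in MAMP libraries, against 29.3, 28.1 and 21.9 CPM in control libraries. MAMP libraries lay wholly above control libraries in all 4 lines for this transcript, as they did for 3.53% of all tested transcripts. Taken one line at a time this held for 14.8% of transcripts in LD, for 6.18% in LDX, for 15.8% in R-11268 and for 9.55% in R-11272.

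**Figure D1:**
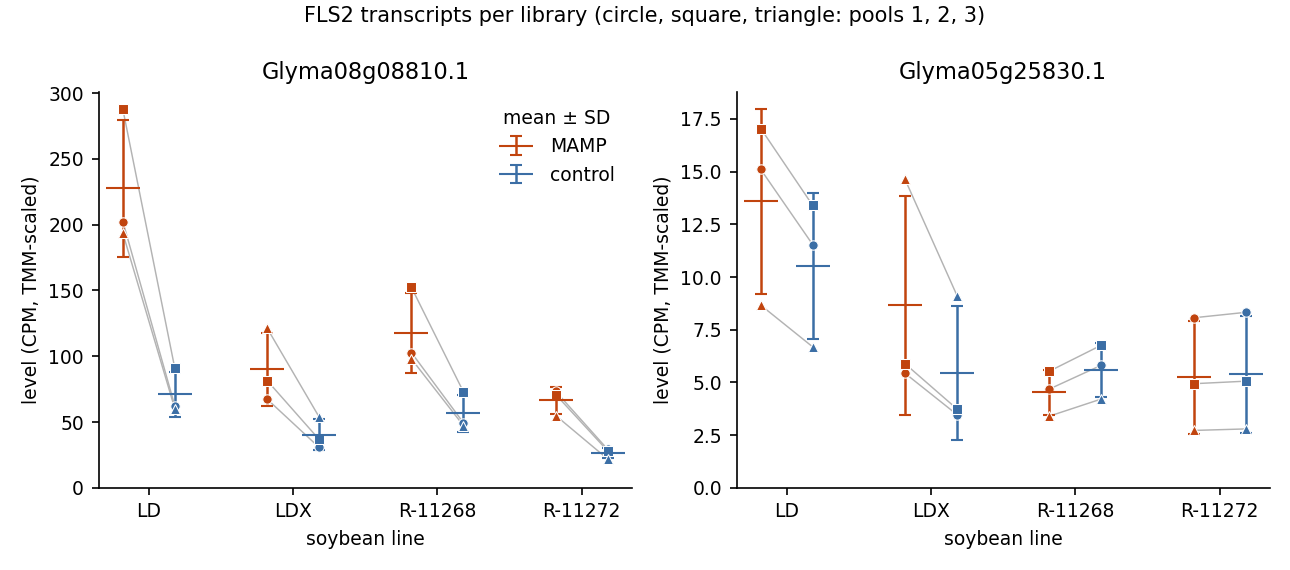
Level of each FLS2 transcript (y axis, CPM scaled by TMM) in every library of the 4 lines (x axis), MAMP in orange and control in blue, with group means and SDs (n = 3) and grey lines joining libraries of a pool. For Glyma08g08810.1 the MAMP libraries lie above the control libraries in each line, from 193 to 288 CPM against 60.1 to 90.8 CPM in LD, while the Glyma05g25830.1 groups overlap in each line.

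The mean log2 response of Glyma08g08810.1 over the 4 lines was 1.31 ± 0.14 (SE, 95% interval 1.01 to 1.60, edgeR quasi-likelihood adjusted p = 1.13e-06, positive in 4 of 4 lines). In this comparison 9.75% of tested transcripts were called at an adjusted p under 0.05, 7.75% as higher and 2% as lower. A larger mean response was fitted for 1310 transcripts (3.94% of those tested), and the median response of all tested transcripts was -0.03.

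Line by line, the fitted log2 response of the chromosome 8 copy was 1.68 ± 0.29 in LD (SE, edgeR adjusted p = 0.000612), where 4.67% of transcripts were called. In LDX it was 1.15 ± 0.28 (edgeR adjusted p = 0.0227, background 3.78% called). In R-11268 it was 1.06 ± 0.28 (edgeR adjusted p = 0.0438, background 3.39% called). In R-11272 it was 1.33 ± 0.28 (edgeR adjusted p = 0.00656, background 4.3% called). The call in R-11268 was the least secure, and it was lost when any of its 3 pools was left out (edgeR adjusted p = 0.284, 0.127 and 0.219). Without pool 1 or pool 2 the calls in LDX (edgeR adjusted p = 0.0876 and 0.157) and in R-11272 (0.0536 and 0.0692) were lost too, with fitted responses between 1.13 and 1.34. Single libraries also ended calls, namely MAMP 1 and 2 and control 1 and 3 in R-11268 (log2 0.82 at the lowest), MAMP 3 and control 1 and 2 in LDX (0.88 at the lowest) and control 3 in R-11272. Without 1 library the other library of its pool stays unpaired, so the fitted response then also carries the level of that pool. In LD the response passed the test in each of the 9 fits that left out a library or a pool. Leaving out a whole pool hardly moves a fitted response, since the pools of a line hold the same ratio. The response sizes in those fits are thus no check of the response.

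The copy on chromosome 5 did not pass the test for a MAMP response in any line. In LD, Glyma05g25830.1 had 15.1, 17 and 8.67 CPM in MAMP libraries of pools 1, 2 and 3, against 11.5, 13.4 and 6.69 CPM in control libraries. In LDX it had 5.43, 5.89 and 14.6 CPM in MAMP libraries, against 3.47, 3.74 and 9.12 CPM in control libraries. Treated and control libraries overlapped in both parents, and the highest pool of LDX stood apart from its other pools in both treatments.

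In the inbred lines the treated values of the chromosome 5 copy lay slightly below the control values of the same pool. In R-11268 it had 4.69, 5.53 and 3.4 CPM in MAMP libraries, against 5.82, 6.77 and 4.21 CPM in control libraries. In R-11272 it had 8.07, 4.94 and 2.72 CPM in MAMP libraries, against 8.33, 5.06 and 2.79 CPM in control libraries. Treated and control libraries overlapped here as well.

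Its mean log2 response was 0.17 ± 0.25 (SE, 95% interval -0.35 to 0.70, or 0.786-fold to 1.62-fold, edgeR adjusted p = 0.886). The interval rests on the spread of levels between pools and is not the error of the response. A larger mean response was fitted for 17.8% of tested transcripts. The fitted log2 response was 0.37 for LD and 0.67 for LDX, against -0.30 for R-11268 and -0.04 for R-11272, with edgeR adjusted p-values of 0.958 to 1. Leaving out a single library moved these uncalled values widely. The LD response ran from 0.13 without control library 3 to 0.61 without MAMP library 3. The LDX response ran from 0.07 without MAMP library 3 to 1.25 without control library 3, and the mean from 0.02 to 0.32 without these same LDX libraries. Such a fit leaves the other library of the pool unpaired, so the shift carries the level of that pool. The MAMP to control ratios of pools 1, 2 and 3 were 1.31, 1.27 and 1.3 in LD. They were 1.56, 1.57 and 1.6 in LDX, alike as the fitted form makes them. The fit with a replicate block (each pool as a block) gave 0.17 for the mean (edgeR adjusted p = 0.00718), 0.37 in LD (0.000152), 0.66 in LDX (7.92e-08) and -0.30 in R-11268 (0.0436). That fit takes its error from the scatter of responses within a line, which these fitted values do not hold, so its calls are void.

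**Figure D2:**
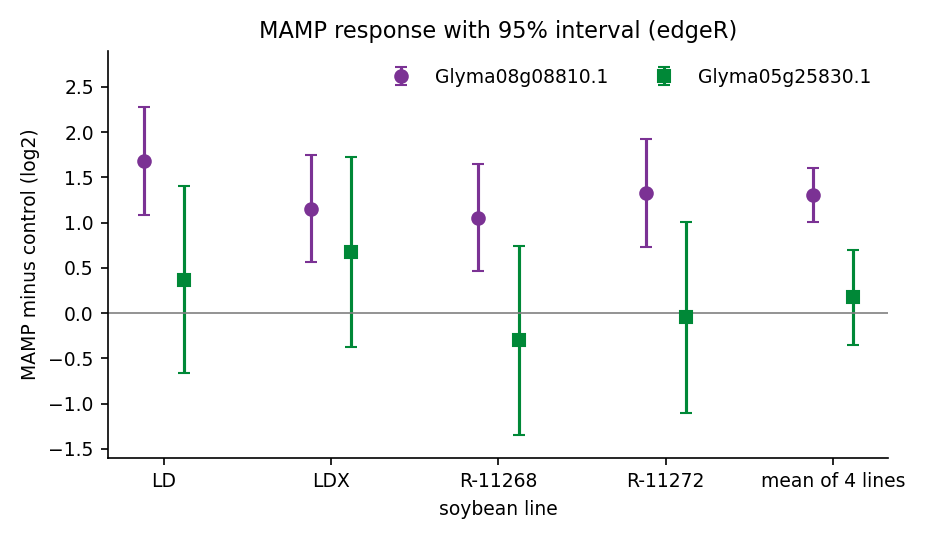
Fitted log2 MAMP response (y axis, MAMP minus control) of both FLS2 transcripts in each line and averaged over the 4 lines (x axis), with 95% intervals from edgeR. The intervals of Glyma08g08810.1 lie above 0 throughout, around a mean of 1.31, and those of Glyma05g25830.1 span 0 throughout, around a mean of 0.17.

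Group totals give the counting error behind these responses. For Glyma08g08810.1 the MAMP libraries of LD summed to 9938 estimated counts and the control libraries to 3037, a scaled ratio of 3.34 with an exact Poisson 95% interval of 3.2 to 3.48. Glyma05g25830.1 was counted far less often, with 591 estimated counts in LD MAMP and 454 in LD control libraries, a ratio of 1.33 (1.17 to 1.5). The ratio was 1.61 (1.37 to 1.9) in LDX, 0.819 (0.689 to 0.973) in R-11268 and 0.96 (0.798 to 1.16) in R-11272. These intervals cover counting error only and no difference between plants. Of these 4 intervals, 3 exclude a ratio of 1, on opposite sides in the parents and in R-11268, and the difference of the response between lines, given below, did not pass its test.

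The ratio of the copies within a library is free of library scaling, and its mean was higher in MAMP than in control libraries of each line. The log2 ratio of Glyma08g08810.1 to Glyma05g25830.1 estimated counts averaged 4.10 ± 0.37 in LD MAMP and 2.78 ± 0.37 in LD control libraries (SD, n = 3). It averaged 3.49 ± 0.39 in LDX MAMP and 3.00 ± 0.39 in LDX control libraries, 4.69 ± 0.21 in R-11268 MAMP and 3.33 ± 0.21 in R-11268 control libraries, and 3.78 ± 0.58 in R-11272 MAMP and 2.41 ± 0.58 in R-11272 control libraries. No source used here gives transcript lengths, so these ratios are compared between libraries and do not rank the copies by abundance. The MAMP minus control difference of the log2 ratio was 1.31 for LD, 0.49 for LDX, 1.36 for R-11268 and 1.37 for R-11272, with a mean of 1.13 ± 0.43 (SD over 4 lines). It was positive in 4 of 4 lines. The exact sign-flip permutation test over lines (two-sided) gave p = 0.125, the smallest its 16 arrangements allow, so this test could not pass 0.05 whatever the values and says nothing for or against a difference in response between the copies.

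**Figure D3:**
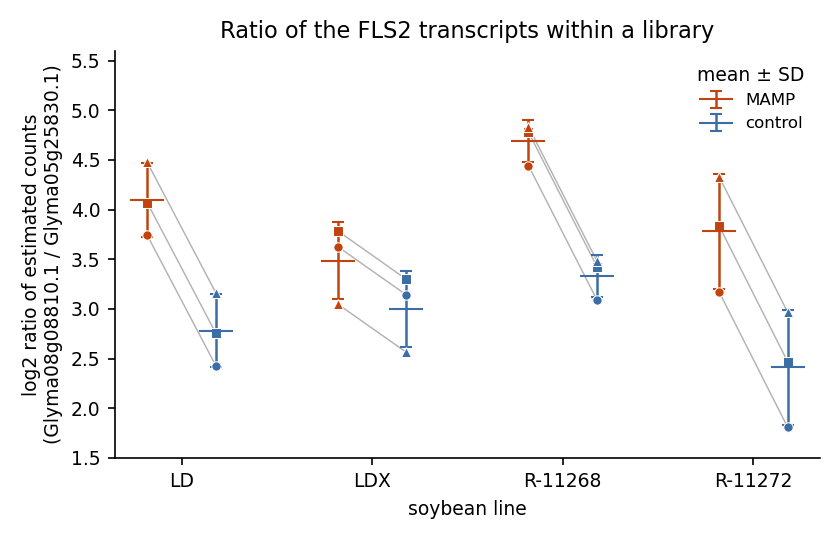
Log2 ratio of the estimated counts of Glyma08g08810.1 to those of Glyma05g25830.1 (y axis) in every library of the 4 lines (x axis), MAMP in orange and control in blue, with means and SDs (n = 3) and grey lines joining libraries of a pool. The ratio is higher in the MAMP library of each pool, by 0.49 in LDX and by 1.31 to 1.37 in the other lines, and the grey lines within a soybean line are parallel, as in fitted values.

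The lines also differed in how much of the chromosome 8 receptor transcript they held. In control libraries Glyma08g08810.1 averaged 71.0 ± 17.2 CPM in LD, 56.6 ± 14.3 CPM in R-11268, 40.5 ± 12 CPM in LDX and 26.4 ± 3.95 CPM in R-11272 (SD, n = 3 each). In MAMP libraries the order was the same, with 228 ± 52 CPM in LD, 118 ± 30.1 CPM in R-11268, 90.1 ± 27.9 CPM in LDX and 66.4 ± 9.97 CPM in R-11272. After MAMP treatment LD lay above R-11268 and R-11272 without overlap, as it or the inbred line did for 36.6% and 30.3% of transcripts, while LDX overlapped with both inbred lines.

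The difference over the 4 lines passed edgeR's test in MAMP libraries (adjusted p = 0.00104, where 10.7% of transcripts were called) and in control libraries (adjusted p = 0.0126, where 8% were called). The control call was lost at an edgeR adjusted p of 0.0501 without R-11272 pool 3, of 0.0521 without its control library alone and of 0.063 on control libraries alone. Sums over each pool, which count each of the 12 pools once, gave an edgeR adjusted p of 0.0356. They add the MAMP and the control library of a pool, so they compare lines over both treatments together and not within either. Line differences in MAMP and in control libraries come from the same pools and are not independent. Each pool enters the fit through 2 libraries, so p-values of line differences may be too small and their intervals too narrow.

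Between the parents, the chromosome 8 copy was higher in LD than in LDX after MAMP treatment. LD was 2.53-fold higher there (1.67 to 3.82, edgeR adjusted p = 0.00578, background 6.4% called), and the libraries of the lines did not overlap, as for 21.4% of transcripts. In control libraries the LD to LDX ratio was 1.75 (1.17 to 2.64), which did not pass the adjusted threshold (edgeR adjusted p = 0.121, unadjusted p = 0.00968, background 5.24% called). There the lines did not overlap either, with 60.1 CPM in the lowest LD library and 53.9 CPM in the highest LDX library, as for 18.3% of transcripts. The parental call in MAMP libraries was lost on the 6 libraries compared (edgeR adjusted p = 0.196). Sums over each pool, of both treatments together, gave no parental call (log2 1.21, edgeR adjusted p = 0.0663). Without the 3 pools that stand apart LD was called higher in control libraries too (log2 0.84, edgeR adjusted p = 0.0473), as it was without LDX pool 3 alone (adjusted p = 0.0279).

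The mean control level of the chromosome 8 copy in R-11272 was below that of both parents, and that in R-11268 lay between them. R-11272 had 0.372 times the control level of LD (0.246 to 0.564, edgeR adjusted p = 0.00607, background 4% called), without overlap of the libraries, as for 23.6% of transcripts. This call was lost on the libraries compared alone (log2 -1.42, edgeR adjusted p = 0.0977). Against LDX it had 0.654 times the control level (0.435 to 0.983), with an unadjusted p of 0.0422 and an edgeR adjusted p of 0.45 (background 2.24% called), and the libraries of these lines did not overlap by a narrow margin (29.3 CPM at most in R-11272, 30.7 CPM at least in LDX, as for 10.9% of transcripts). R-11268 stood at 0.798 times LD (0.531 to 1.2, edgeR adjusted p = 0.84, background 1.52% called) and 1.4 times LDX (0.932 to 2.1, edgeR adjusted p = 0.448, background 3.84% called), and its libraries overlapped with those of both. In control libraries none of the tests of an inbred line against LDX, and none of R-11268 against LD, passed the threshold for either copy. After MAMP treatment no inbred line was tested against a parent alone.

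R-11268 held 2.14 times the control level of R-11272 (1.42 to 3.23, edgeR adjusted p = 0.0524, background 1.96% called) and 1.77 times its MAMP level (1.18 to 2.67, edgeR adjusted p = 0.211, background 1.84% called). The inbred lines did not overlap in MAMP libraries, as for 20.1% of transcripts, nor in control libraries, as for 30.2%. The control comparison lay at the threshold, and 6 of 10 alternatives called it, among them DESeq2 (adjusted p = 0.0121) and limma (adjusted p = 0.0401). It was not called on the libraries compared alone (edgeR adjusted p = 0.21) or at a mean of 100 counts (0.196). Nor was it called in any of 12 fits that left out a library or pool (edgeR adjusted p = 0.0519 to 0.275). Sums over each pool, of both treatments together, did not call a difference between the inbred lines (edgeR adjusted p = 0.357).

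The chromosome 5 copy did not pass the test over lines in either treatment. Glyma05g25830.1 averaged 10.5 ± 3.47 CPM in LD, 5.599 ± 1.29 CPM in R-11268, 5.45 ± 3.19 CPM in LDX and 5.39 ± 2.78 CPM in R-11272 control libraries (SD, n = 3 each). In MAMP libraries it averaged 13.6 ± 4.39 CPM in LD, 8.65 ± 5.19 CPM in LDX, 5.24 ± 2.69 CPM in R-11272 and 4.54 ± 1.07 CPM in R-11268. LD had the highest mean in both treatments, and the order of the other lines below it changed with treatment and lay within their spread. Libraries of LD did not overlap with those of either inbred line after MAMP treatment, as for 36.6% (R-11268) and 30.3% (R-11272) of transcripts, and they overlapped with LDX.

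The test over the 4 lines gave an edgeR adjusted p of 0.112 in MAMP libraries (unadjusted p = 0.0173) and of 0.443 in control libraries for Glyma05g25830.1. The MAMP value passed without LDX pool 3 (edgeR adjusted p = 0.0309), without R-11272 pool 1 (0.0482) and without all 3 pools that stand apart (0.0274). The LD to LDX ratio of this copy was 1.58 in MAMP libraries (0.77 to 3.24, edgeR adjusted p = 0.542) and 1.95 in control libraries (0.939 to 4.03, edgeR adjusted p = 0.394). Without the 3 pools apart the control difference was 1.32 on the log2 scale (edgeR adjusted p = 0.0471).

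With TMM scaling both copies peaked in the same pool of a line. The pool with the highest level of one copy also had the highest level of the other, pool 2 in LD and R-11268, pool 3 in LDX and pool 1 in R-11272. This held in both treatments, but that MAMP and control libraries give the same order follows from the fitted form. The share of all transcripts that peaked in these pools was not counted. Of these, LD pool 2, LDX pool 3 and R-11272 pool 1 are the pools that stood apart across the transcriptome, and their part in the levels was not tested. In R-11272 pool 1 this rests on scaling. As CPM of the library total without TMM scaling, Glyma08g08810.1 held 55.8 in R-11272 pool 1, 74.4 in pool 2 and 58.8 in pool 3 after MAMP treatment, and 20.3, 29.9 and 24.2 in the controls of these pools. The TMM factors of that pool were 0.762 in its MAMP and 0.694 in its control library.

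The size of the response was not shown to differ between lines for either copy. The test over the 4 lines gave an unadjusted p of 0.427 for Glyma08g08810.1 and 0.536 for Glyma05g25830.1 (edgeR adjusted p = 1 for both, background 0.148% called). The response of Glyma08g08810.1 in LD exceeded that in LDX by 0.53 on the log2 scale (-0.30 to 1.36, edgeR adjusted p = 1, background 0.012% called), and that in R-11268 was below that in R-11272 by a difference of -0.27 (-1.10 to 0.56, edgeR adjusted p = 1, background 0.0331% called). The void replicate block called the difference over lines (edgeR adjusted p = 6.34e-50 for the chromosome 8 copy, 9.54e-08 for the chromosome 5 copy), as well as 0.53 for the parents and -0.27 for the inbred lines for the chromosome 8 copy.

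The ratio of the copies was also compared across lines, which tests whether lines differ in the balance of the receptors. In MAMP libraries the mean log2 ratio ran from 3.49 in LDX to 4.69 in R-11268, and an exact permutation test over the 12 pools gave p = 0.0386. In control libraries it ran from 2.41 in R-11272 to 3.33 in R-11268, with an exact permutation p of 0.113. Adjusted over these 2 tests the values were 0.0773 and 0.113, so neither passed. With 1 pool left out the exact permutation p ran from 0.0165 to 0.125 in MAMP libraries, under 0.05 in 5 of 12 cases, and in control libraries it was 0.0418 without R-11272 pool 3.

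The transcripts of the loci around each copy were examined next. Among the 10 listed loci on each side of Glyma08g08810, by locus number, 17 of 20 transcripts were tested and 3 were called higher with MAMP, none lower, against the background of 7.75%. Their median log2 response was -0.02, and that of all tested transcripts -0.03. The 3 were named after their values were seen. They are Glyma08g08800.1, the next listed locus below the receptor, at 1.33 (edgeR adjusted p = 0.000194), Glyma08g08860.1 at 2.48 (1.83e-13) and Glyma08g08720.1 at 0.87 (0.00013). The other near neighbours gave 0.54 for Glyma08g08780.1 (0.05 to 1.01 with 1 library or pool left out), 0.15 for Glyma08g08820.1 and -0.07 for Glyma08g08830.1, none past the threshold for this mean. Glyma08g08830.1 was called lower with MAMP in R-11272 alone (log2 -1.05, edgeR adjusted p = 0.0044, background 4.3% called), from 1.66 CPM in control to 0.809 CPM in MAMP libraries.

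Around Glyma05g25830, 18 of 20 neighbouring transcripts were tested, and again 3 were called higher and none lower, with a median log2 response of 0.03. Glyma05g25920.1 rose by 2.99 (edgeR adjusted p = 2.24e-07), Glyma05g25770.1 by 0.76 (0.00989) and Glyma05g25880.1 by 0.23 (0.0333), also named after their values were seen. The Glyma05g25880.1 call was lost with RLE factors, with upper-quartile factors, at a mean of 100 counts, with the 4 lines as replicates (edgeR or limma adjusted p = 0.0584 to 0.177) and in 20 of 36 fits that left out a library or pool. The nearest tested neighbours gave 0.10 for Glyma05g25820.1, -0.52 for Glyma05g25810.1 and -0.35 for Glyma05g25850.1, none past the threshold. The largest responses among these neighbours were those of Glyma08g08860.1 (2.48) and Glyma05g25920.1 (2.99), picked out after the values were seen. The share of all tested transcripts with responses that large was not counted.

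**Figure D4:**
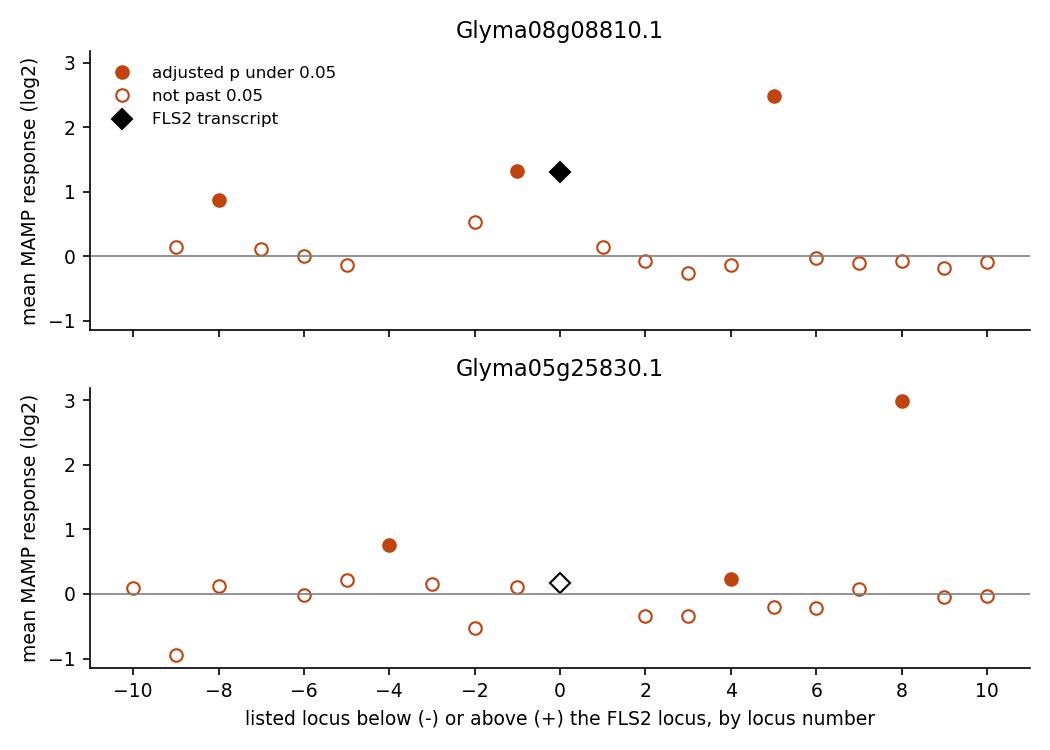
Mean log2 MAMP response over the 4 lines (y axis) of the tested transcripts among the 10 listed loci on each side of each FLS2 locus (x axis, order by locus number), filled where the edgeR adjusted p was under 0.05. Glyma08g08810.1 (1.31) and the next locus below it (1.33) have like values, with Glyma08g08860.1 at 2.48 farther off, while Glyma05g25830.1 (0.17) lies among near neighbours from -0.52 to 0.10, with Glyma05g25920.1 at 2.99.

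Parental differences were also counted at the neighbours. In control libraries 1 of the 17 transcripts around Glyma08g08810 was called, Glyma08g08860.1, which was lower in LD (4.37 ± 0.69 CPM) than in LDX (7.80 ± 0.72 CPM), at -0.83 on the log2 scale (SD, n = 3, edgeR adjusted p = 0.00675, background 5.24% called). None of the 18 around Glyma05g25830 was. The Glyma08g08860.1 call, opposite in direction to the receptor, was lost on the libraries compared alone (edgeR adjusted p = 0.249), without LD pool 1 (0.0616) and without the 3 pools apart (0.0554). Sums over each pool (log2 -0.11) do not test it, since they add the MAMP libraries, which averaged 36.0 CPM in LD and 35.8 CPM in LDX. In MAMP libraries 1 of 17 and 2 of 18 were called higher in LD and none lower, against 6.4% of all transcripts called. These were Glyma08g08720.1 at 1.195 (edgeR adjusted p = 0.0114) near the chromosome 8 copy, and Glyma05g25880.1 at 0.78 (0.000769) and Glyma05g25700.1 at 0.84 (0.046) near the chromosome 5 copy, named after their values were seen. Between the inbred lines 1 of the 17 was called in control libraries, Glyma08g08830.1, lower in R-11268 (0.571 CPM) than in R-11272 (1.66 CPM). Its log2 difference was -1.52 (edgeR adjusted p = 9.61e-05, background 1.96% called), opposite in direction to the receptor. This call and its fall with MAMP in R-11272 share the same R-11272 control libraries, at a low level. In MAMP libraries it averaged 0.813 CPM in R-11268 and 0.809 CPM in R-11272. None of the 18 was called between the inbred lines in control libraries, and no neighbour of either copy was in MAMP libraries.

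The neighbour Glyma08g08800.1 was also the transcript most like the chromosome 8 receptor. Over the 24 libraries its log2(CPM + 1) had a Pearson r of 0.959 with Glyma08g08810.1, the highest of all tested transcripts, and the median r over all of them was -0.02. It averaged 58.0 ± 14.0 CPM in LD MAMP and 19.2 ± 4.92 CPM in LD control libraries, and 21.7 ± 8.57 CPM in R-11272 MAMP and 9.18 ± 3.64 CPM in R-11272 control libraries (SD, n = 3). Its lines stood in the receptor's order in control libraries, with 14.2 CPM in R-11268 and 11.7 CPM in LDX between them. Its differences between lines did not pass the threshold in the 4 comparisons of parents or inbred lines (edgeR adjusted p = 0.247 to 0.774). Whether reads of one locus were counted for the other was not tested.

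The next most alike was Glyma18g51960.1 at 0.953, and the 5 most alike ran from 0.941 to 0.959. Over the 8 group means, where pools no longer enter, 0 of these 5 were among the first 5, and Glyma08g08800.1 came sixth (r of 0.988). For Glyma05g25830.1 the most alike were Glyma01g38380.1 at 0.939 and Glyma04g33740.1 at 0.932, with the 5 most alike from 0.926 to 0.939. The copies themselves correlated at 0.604, which placed Glyma05g25830.1 at rank 1862 for its partner and Glyma08g08810.1 at rank 3535. These are descriptions over libraries that share lines, pools and scaling.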

How the data were processed

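The deposited table holds the authors' estimated counts per transcript in 24 columns (0 further columns). The submitters' processing notes list TopHat 1.4.1, Bowtie 0.12.7 and Cufflinks 1.1.0. No source used here states the counting step, the genome build or the handling of reads with several matches. Columns marked C were taken as control libraries and columns marked P as MAMP libraries.

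After rounding of the estimated counts, edgeR 4.0.16 in R 4.3.3 was used (filterByExpr with minimum count 10 and minimum total 15, TMM, quasi-likelihood test, 8 group means, 24 libraries, 16 residual degrees of freedom, no block). Adjusted p-values of this fit were by Benjamini-Hochberg over 33214 transcripts, and those of each alternative over the transcripts it kept, at a threshold of 0.05. The permutation p-values of the ratio across lines were adjusted over 2 tests, and the sign-flip p was not adjusted. The SE is the log2 fold change divided by the square root of F, and intervals are 95%. CPM are TMM-scaled. Ratios of the copies used an offset of 0.5 counts. Alternatives used DESeq2 1.42.0 and limma 3.58.1, and leaving out the 3 pools apart was added after seeing the data. Code was tested on simulated data.

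Libraries of a line with the same number were taken as 1 pool. Their deviations from group means correlated at 0.98 or more, against at most 0.85 for other numbers, which the fitted form cannot separate from the authors' model. Each pool thus enters line tests through 2 libraries, so the 16 degrees of freedom overstate the independent ones. The p-values of line differences may be too small and their intervals too narrow. Replicates are described as plant pools, so p-values measure the spread of levels between these pools. For responses this is not the error of a change within a pool, which the fitted values do not hold. Response p-values thus do not tell how the response varied between plants. The members and lists were chosen with earlier results of these data known. Named genes are the members, the 2 nearest listed loci on each side, neighbours called between the parents in control libraries and the transcripts most alike, of which 2 of 5 are named. Other neighbours called for the mean response or between the parents after MAMP treatment were named after their values were seen. Glyma05g25840.1 was not tested because of its low counts. 0 identifiers matched the reference table, so the planned pathway and leaf marker lists were not run.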

Additional observations from a re-analysis of the deposited data

How the results depend on the processing

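The mean MAMP response of Glyma08g08810.1 was called in all 9 alternatives (log2 1.23 to 1.31) and in 36 of 36 fits that left out a library or pool (1.24 to 1.37), and its LD response likewise (1.59 to 1.69, and 1.48 to 1.90 over 9). In both cases the 9 alternatives include the void replicate block, whose call adds nothing. The LDX response was lost on the compared libraries (1.15) and ran from 0.88 to 1.41 over left-out libraries or pools, with 5 of 9 calls lost. The R-11268 response was lost with RLE factors (1.04), at a mean of 100 counts (1.05) and on the compared libraries (1.06), and ran from 0.82 to 1.28 with 7 of 9 lost. The R-11272 response ran from 1.21 to 1.44 with 3 of 9 lost. Without 1 library the other library of its pool stays unpaired, so ranges of responses here and below also carry the level of that pool. Fits without a whole pool hardly move a response, since the pools of a line hold the same ratio. Their response sizes were fixed by the fitted form and add no support.

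The void replicate block changed calls for the responses given in the report (0.173, 0.372, 0.662 and -0.302 for Glyma05g25830.1), for the response differences (6.34e-50 and 9.54e-08 as adjusted p over lines, 0.535 and -0.273 for Glyma08g08810.1). For line differences the replicate block was another fit, with the replicate number as a term, and pools of different lines share only that number. It called R-11268 minus R-11272 in control (1.07, adjusted p 0.0434, for Glyma08g08810.1), changed no other call of the members on line differences, and turned R-11268 minus LDX to -0.0193 for Glyma05g25830.1. For the R-11268 minus R-11272 control difference of Glyma08g08810.1, upper-quartile factors (1.13), no filter (1.14), limma (1.05), DESeq2 (1.11) and the fit without the 3 pools apart (1.18) called it. RLE factors, a mean of 100 counts, the compared libraries alone and pool sums did not call it. Nor did any of 12 fits that left out a library or pool.

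The control difference over lines was lost at a mean of 100 counts (adjusted p 0.0515) and on the compared libraries (0.063), and ran from 0.00331 to 0.0521 over left-out libraries or pools. LD minus LDX was lost in MAMP on the compared libraries (1.31), was gained in control without the 3 pools apart (0.836), and ran from 0.600 to 1.07 in control over left-out libraries or pools. It was 1.21 and uncalled on pool sums, which hold both treatments. R-11272 minus LD was lost on the compared libraries (-1.42). For Glyma05g25830.1, leaving out the 3 pools apart gave 1.32 for LD minus LDX in control and an adjusted p of 0.0274 over lines in MAMP, which ran from 0.0309 to 0.351 over left-out libraries or pools. The MAMP ratio across lines was lost without the 3 pools (0.0937), and ran from 0.0165 to 0.125 over pools, against 0.0418 to 0.24 in control.

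Uncalled values of Glyma05g25830.1 near 0 changed sign. On pool sums, which hold both treatments, R-11268 minus R-11272 was -0.0369 and R-11268 minus LDX -0.457. Without the 3 pools R-11268 minus R-11272 in MAMP was 0.232, R-11272 minus LDX 0.0936 and the R-11272 response 0.00326, and R-11272 minus LDX was 0.000452 at a mean of 100 counts. Over left-out libraries or pools the R-11272 response ran from -0.477 to 0.402, the response difference of the parents from -0.878 to 0.298 and of the inbred lines from -0.703 to 0.175, R-11268 minus R-11272 from -0.251 to 0.514 in control and -0.464 to 0.243 in MAMP, R-11268 minus LDX from -0.167 to 0.631 and R-11272 minus LDX from -0.483 to 0.563. The mean response of Glyma08g08820.1 ran from -0.0567 to 0.351 and that of Glyma05g25850.1 from -0.738 to 0.0438. Transcripts called for the mean response numbered 3238, against 1891 at a mean of 100 counts, 5629 without the 3 pools and 18199 with the void block. For the difference over lines 3551 were called in MAMP and 2657 in control, against 851 and 474 at a mean of 100 counts, 1686 and 1233 on the compared libraries, 1733 on pool sums and 6887 and 5781 without the 3 pools. The parental MAMP call counted 2126 transcripts, against 574, 428, 1340 and 4796 under these settings. Causes were not tested. Glyma05g25830.1 had 52.8 to 226.8 estimated counts per library, and for its LD response the interval from counting error (ratio 1.17 to 1.5) was narrower than that with the spread between pools (0.632 to 2.64).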
